A study of Mus musculus with 2 samples.

Results

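The Zfp36 family of mRNA decay factors was examined in single cells from mouse bone marrow derived macrophage cultures, in 1 library of cells given Tamm-Horsfall protein and 1 library of cells given vehicle. The members were the rows of the count matrices that carry the symbols Zfp36, Zfp36l1 and Zfp36l2, which are 3 of the 31053 genes listed, and all 3 were found in both matrices. Zfp36l3, a further gene of the same family, had 0 UMIs in the Tamm-Horsfall protein library and 1 UMI in the vehicle library, below the 3 UMIs set as the limit for a level, and was not followed.

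Proteins of this family bind AU-rich stretches in the 3′ untranslated regions of short-lived mRNAs through a pair of CCCH zinc fingers. They then recruit the CCR4-NOT deadenylase and the decapping machinery, so that the bound mRNA is degraded. In macrophages Zfp36, whose protein is called tristetraprolin, is known for limiting Tnf and other inflammatory mRNAs, and its own mRNA is induced by inflammatory signals and carries the element that the protein binds. Zfp36l1 and Zfp36l2 are known from developing lymphocytes and blood progenitors, where they act on mRNAs of growth and survival genes.

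Marrow cells of 129Sv mice were cultured with macrophage colony-stimulating factor, the growth factor of the macrophage lineage, at 50 ng/ml, in the presence of 10% fetal bovine serum. On day 7 the treated culture received 1 µg/ml of a truncated, non-polymerizing form of Tamm-Horsfall protein (abbreviated THP, a protein made by the kidney), and the control culture received vehicle, which was 5% dextrose. Both were kept for 18 h, detached, cleared of dead cells and made into droplet libraries, in which each captured mRNA molecule is counted by a unique molecular identifier (UMI). With 1 library per group there was no replicate, no p-value is given, and treatment cannot be told apart from culture dish or library preparation. Age, sex and number of the mice were not given in the sources used here.

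The THP library kept 12123 cells with 224825484 UMIs in all and a median of 16113 UMIs per cell, and the vehicle library kept 10978 cells with 207662132 UMIs and a median of 17223. The libraries had 42 barcodes in common, 38 of them among kept cells, and the ratios of all 3 members moved by under 0.01 without them. Both cultures were labelled macrophages. The macrophage class held 36.4% of THP cells and 24.1% of vehicle cells. In this class 7 of the 8 markers of the macrophage gate reached 50 counts per 1000000 UMIs (CPM). Further cells passed that gate and were set apart as subclasses. Vsig4 macrophages made up 3.98% and 3.52%, osteoclast-like cells 2.84% and 2.58%, and interferon-high macrophages 0.858% and 0.401%. Cells gated by MHC class II genes that also had macrophage markers made up 5.57% and 6.28%. A gate of myeloid progenitor markers was passed by 12.1% and 17.8%, and the immature or mature neutrophil gates by 14.6% and 20.3%. Cells were placed in 14 classes by UMIs of marker genes, and 11 classes held at least 50 cells in both libraries. Each gate asked for markers of its own class and, except for rare types such as B cells and stromal cells, set upper limits on markers of chosen other classes, and cells that fitted no gate were left out of the classes (14.8% and 14.2%). The progenitor gate set no limit on monocyte or neutrophil markers, and the immature neutrophil gate none on mature neutrophil or monocyte markers.

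All 3 members lie on the minus strand in the GRCm38 build with the GENCODE M21 annotation. Zfp36 (ENSMUSG00000044786) spans chromosome 7 from 28376784 to 28380253, Zfp36l1 (ENSMUSG00000021127) chromosome 12 from 80107754 to 80113013, and Zfp36l2 (ENSMUSG00000045817) chromosome 17 from 84183931 to 84187947. Their longest coding transcripts measure 2790, 2990 and 3530 bases. The coding sequence holds 2 CCCH fingers in each gene, and these are the RNA-binding parts of the proteins that the members have in common. The stretch of 60 coding bases from the first cysteine to the histidine of the second finger is shown for each, 5′ to 3′ on the coding strand, with the cysteine and histidine codons in capitals.
Zfp36, codons 139 to 158: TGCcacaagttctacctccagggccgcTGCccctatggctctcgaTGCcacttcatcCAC
Zfp36l1, codons 158 to 177: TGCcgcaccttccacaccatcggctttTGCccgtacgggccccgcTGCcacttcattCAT
Zfp36l2, codons 199 to 218: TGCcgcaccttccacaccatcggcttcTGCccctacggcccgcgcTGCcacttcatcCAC
Over these 60 bases Zfp36l1 and Zfp36l2 had 54 bases the same (90.0%), Zfp36 and Zfp36l2 had 45 (75.0%), and Zfp36 and Zfp36l1 had 40 (66.7%). Over the whole transcripts, Zfp36l1 and Zfp36l2 had 2 runs of 31 bases in common, counted at every position, and Zfp36 had none with either.

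The members are also candidates for binding by their own proteins. The 3′ untranslated region of each holds 3 copies of UAUUUAU, the core that these fingers bind (searched on the mRNA strand, overlapping copies counted), in 774 bases for Zfp36, 1835 for Zfp36l1 and 1822 for Zfp36l2. A window of 30 bases around such copies is shown for each member and for 3 known or candidate targets, written as DNA with T for U and with the core in capitals.
Zfp36, chr7:28376958-28376987, minus strand: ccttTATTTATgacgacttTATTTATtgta
Zfp36l1, chr12:80108421-80108450, minus strand: ttatcaaaacgTATTTATtgccaaactatg
Zfp36l2, chr17:84184913-84184942, minus strand: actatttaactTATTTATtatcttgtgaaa
Tnf, chr17:35199677-35199706, minus strand: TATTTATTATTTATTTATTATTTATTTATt
Cxcl2, chr5:90905328-90905357, plus strand: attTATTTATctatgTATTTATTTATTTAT
Ier3, chr17:35822485-35822514, plus strand: taattaaTATTTATgTATTTATgtatatcc
Of 7931 genes at 10 CPM or more with an annotated 3′ untranslated region, 30.2% held at least 1 copy and 3.93% held 3 or more. The whole 3′ untranslated regions of Tnf, Cxcl2 and Ier3 held 8, 7 and 4 copies. A copy is a run of letters, and binding was not measured.

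Over all kept cells, Zfp36 was higher and Zfp36l2 lower in the THP library, with Zfp36l1 between them. Zfp36 had 16184 UMIs in the THP library, or 72.0 CPM (95% interval 70.9 to 73.1), and 48.7 CPM (47.8 to 49.7) with vehicle. Its log2 ratio was 0.55, computed on CPM + 1 as throughout (interval of the ratio itself 0.53 to 0.60). Zfp36l1 stood at 60.0 CPM (59.0 to 61.1) with THP and at 75.2 CPM (74.0 to 76.4) with vehicle, and its log2 ratio was -0.32 (-0.36 to -0.29). Zfp36l2 stood at 102.8 CPM (101.5 to 104.1) with THP and at 191 CPM (189 to 193) with vehicle, and its log2 ratio was -0.89 (-0.92 to -0.87). The intervals of the 2 libraries did not overlap for any member, but they cover counting error only and at this depth exclude 0 for most genes: 28.0% of the 8012 genes at 10 CPM or more had an interval above 0 and 63.3% had one below 0.

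Against all genes, Zfp36 stood near the upper end and Zfp36l2 near the lower end of the distribution. In these 8012 genes the median gene had a log2 ratio of -0.18. Zfp36 lay above 97.45% of them, Zfp36l1 above 36.9% and Zfp36l2 above 5.03%. No member passed the size rule of at least 2-fold on CPM + 1, which 0.911% of genes passed as higher and 2.97% as lower. Scaling mattered for Zfp36l1: with TMM factors, which move the median gene up, its log2 ratio was -0.04, while those of Zfp36 and Zfp36l2 were 0.83 and -0.60. Long transcripts had lower ratios than short ones over all genes (Spearman's rho -0.55 across genes, which are not independent), and after subtraction of that trend the ratios stood 0.68 above it for Zfp36, 0.16 below it for Zfp36l1 and 0.65 below it for Zfp36l2.

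The make-up of the family differed between the libraries. Zfp36 gave 30.7% (exact binomial 95% interval 30.3 to 31.1) of the UMIs of the 3 genes with THP and 15.5% (15.2 to 15.8) with vehicle. Zfp36l2 gave 43.8% (43.4 to 44.2) with THP and 60.6% (60.3 to 61.0) with vehicle. The share of Zfp36l1 was 25.6% and 23.9%. Expressed as 1 number, there were 0.700 Zfp36 UMIs per Zfp36l2 UMI with THP and 0.255 with vehicle, a ratio that needs no scaling between libraries. It was higher in the THP library in all 11 classes, with 0.227 against 0.0952 in myeloid progenitors (THP first), where it was lowest. It was 0.8001 against 0.273 in macrophages, 0.931 against 0.346 in Vsig4 macrophages and 1.06 against 0.473 in immature neutrophils.

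**Figure D1:**
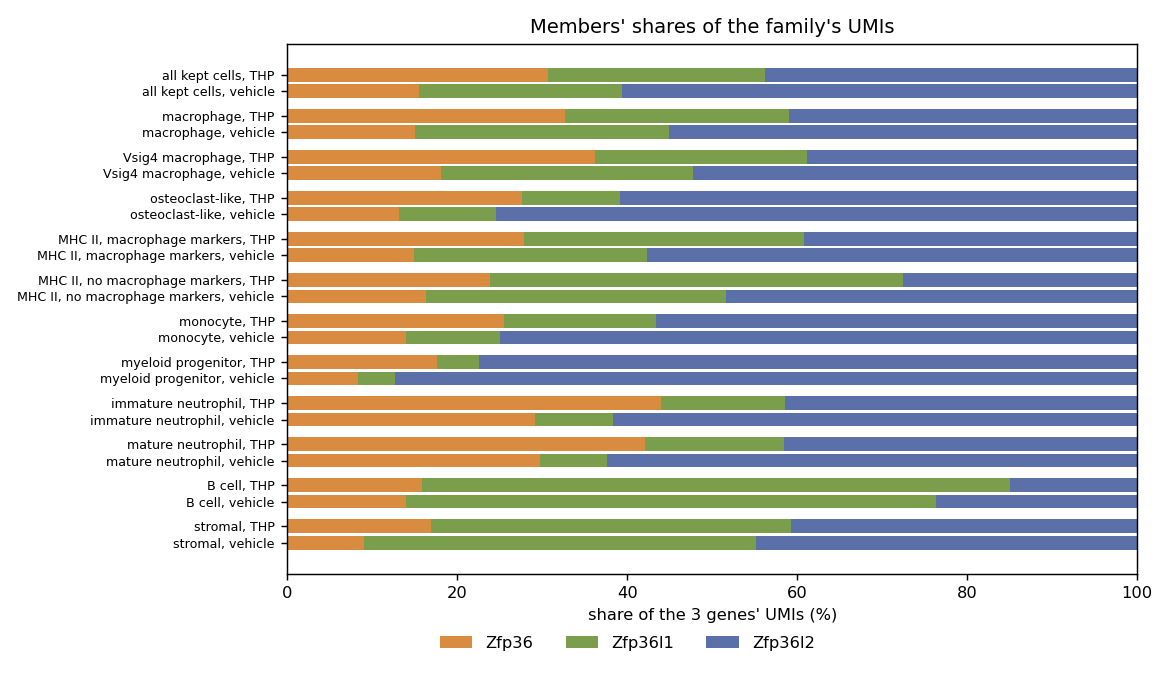
Share of the 3 genes' UMIs taken by each member (x axis, percent, summing to 100) in all kept cells and in 11 marker-gated classes, with a bar for each library. The Zfp36 segment is longer and the Zfp36l2 segment shorter in the THP bar of every pair, and Zfp36l1 takes most of the bar in B cells (69.2% and 62.4%).

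Zfp36 differed in level between the cell classes. Mature neutrophils had the highest value in both libraries, 118 CPM (106 to 131) with THP and 130 CPM (118 to 143) with vehicle, and Vsig4 macrophages, a class with the resident macrophage genes Vsig4, Marco and Cd5l, came next with 105 CPM (98.7 to 110.9) and 84.6 CPM (78.5 to 91.1). The intervals of these 2 classes overlapped with THP and did not with vehicle. Macrophages stood in the middle with 76.4 CPM (74.8 to 78.0) and 50.7 CPM (49.0 to 52.4), and their intervals overlapped those of cells gated by MHC class II genes that also had macrophage markers. Myeloid progenitors had the lowest level, 26.5 CPM (24.4 to 28.6) with THP and 15.4 CPM (14.2 to 16.7) with vehicle, apart from every other class.

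Zfp36l1 varied most across the classes. B cells had 262 CPM (206 to 329) with THP and 265 CPM (201 to 342) with vehicle, from 74 and 52 cells. Cells gated by MHC class II genes without macrophage markers followed with 191 CPM (180 to 202) and 159 CPM (151 to 167); the genes leading this class included those of immunoglobulin chains, so it is named by its gate. Macrophages had 61.6 CPM and 101 CPM. Myeloid progenitors had 7.49 CPM and 8.14 CPM, and RNA free in the droplets can contribute to a value this low.

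Zfp36l2 was spread more evenly. With vehicle it ran from 100 CPM (62.9 to 152) in B cells to 273 CPM (256 to 291) in mature neutrophils. Monocytes were at 244 CPM (234 to 254) and Vsig4 macrophages at 244 CPM (234 to 255). With THP it ran from 56.6 CPM (32.4 to 91.9) in B cells to 147 CPM (136 to 158) in monocytes, and mature neutrophils were at 117 CPM (105 to 129). The B cell values rest on 16 UMIs with THP and 22 with vehicle. Their intervals overlapped those of immature neutrophils in both libraries. The class with the most Zfp36l2 was a different one in each library.

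**Figure D2:**
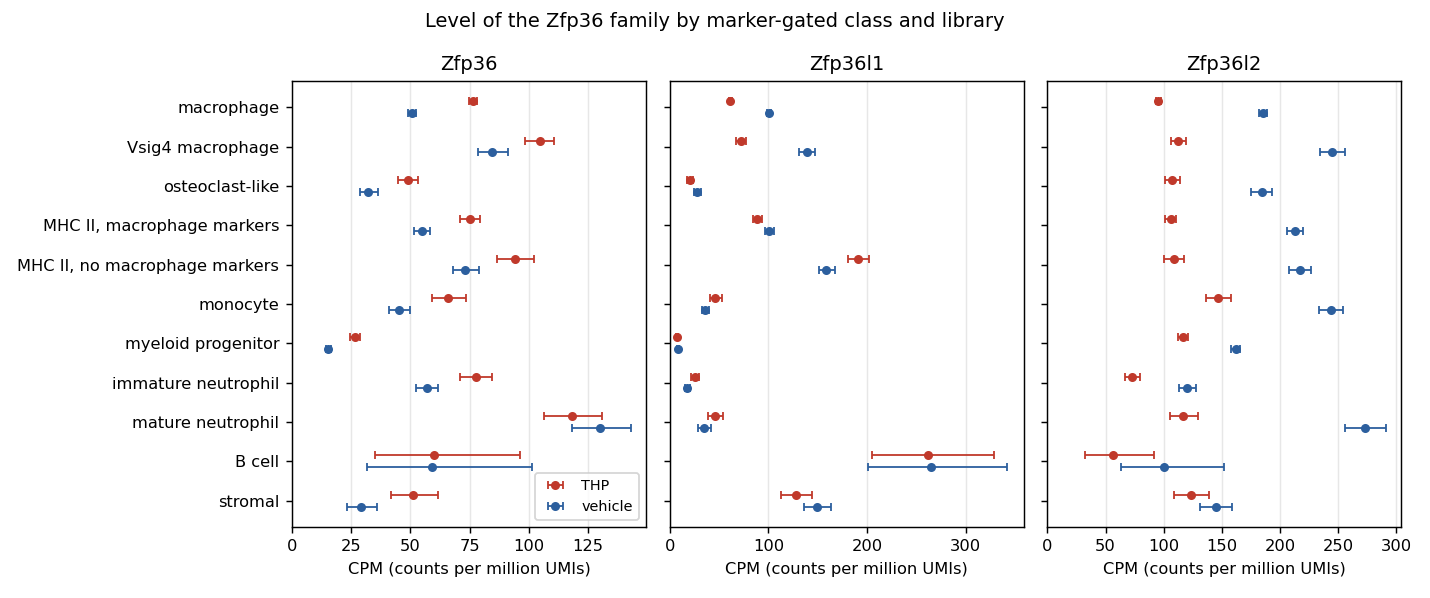
Level of each member in CPM (x axis, starting at 0) in 11 marker-gated classes, with THP in red and vehicle in blue; bars are exact Poisson 95% intervals of 1 library each and cover counting error only. The Zfp36 points of THP lie to the right of vehicle in 10 classes and to the left in mature neutrophils, while the Zfp36l2 points of THP lie to the left in all 11.

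Within classes, Zfp36 was higher with THP almost throughout. Its counting interval lay above 0 in 9 of the 11 classes and below 0 in none, a pattern that 6.22% of the 8012 genes had. The log2 ratio was 0.79 in stromal cells, 0.74 in myeloid progenitors, 0.59 in osteoclast-like cells, 0.58 in macrophages (0.54 to 0.65) and 0.53 in monocytes. It was 0.45 in MHC class II gated cells with macrophage markers, 0.44 in immature neutrophils, 0.36 in MHC class II gated cells without macrophage markers and 0.30 in Vsig4 macrophages. In mature neutrophils it was -0.14 (-0.34 to 0.06; 0.14 with TMM factors), and in B cells 0.02 (-1.11 to 1.18), where 17 and 13 UMIs leave even a change of 2-fold within the interval. In osteoclast-like cells and monocytes the value depended on the gate, with 0.17 in both when the gate was set at 2 times the marker level.

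Zfp36l1 went in different directions in different classes. Its interval lay below 0 in 4 classes: Vsig4 macrophages with a log2 ratio of -0.93 (-1.08 to -0.81), macrophages with -0.70 (-0.76 to -0.66), osteoclast-like cells with -0.44 (-0.73 to -0.18) and MHC class II gated cells with macrophage markers with -0.18 (-0.28 to -0.09). It lay above 0 in the other 4 classes with an interval clear of 0: immature neutrophils with 0.51 (0.22 to 0.85), mature neutrophils with 0.40 (0.05 to 0.77), monocytes with 0.35 (0.11 to 0.61) and MHC class II gated cells without macrophage markers with 0.26 (0.15 to 0.38). An interval above 0 in at least 4 classes and below 0 in at least 4 was found for 29 of the 8012 genes, 0.362%. These limits match the counts of Zfp36l1 itself. With gates set at 1/2 of the marker level, its interval lay above 0 in 3 of 12 classes and below 0 in 6. At 2 times the marker level it lay above 0 in 5 of 10 classes and below 0 in 4. Immature neutrophils had 0.149 (THP) and 0.116 (vehicle) Zfp36l1 UMIs per cell, and mature neutrophils 0.216 and 0.160. Myeloid progenitors had 0.123 and 0.162, and RNA free in the droplets can contribute to values this low. The part of free RNA in the neutrophil ratios was not tested. No class passed the size rule for Zfp36l1. With TMM factors the ratio in MHC class II gated cells with macrophage markers changed sign to 0.10, and the other 7 directions stayed.

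Zfp36l2 was lower with THP in nearly every class. Its interval lay below 0 in 10 of 11 classes and above 0 in none, as for 11.9% of the 8012 genes. It passed the size rule as lower in 3 classes. The log2 ratio was -1.22 (-1.40 to -1.05) in mature neutrophils and -1.11 (-1.22 to -1.02) in Vsig4 macrophages. It was -1.001 (-1.09 to -0.93) in MHC class II gated cells with macrophage markers. In these classes 8.74%, 3.51% and 3.25% of genes passed the rule as lower. With TMM factors the 3 values were -0.93, -0.83 and -0.72, and none reached 2-fold. Macrophages had 95.5 CPM (93.7 to 97.3) with THP and 185 CPM (182 to 189) with vehicle, a log2 ratio of -0.95 that fell short of the rule (passed by 2.33% of genes as lower). The differences were smaller in myeloid progenitors at -0.47 (-0.54 to -0.41) and in stromal cells at -0.23 (-0.46 to -0.004), and with TMM factors the stromal value changed sign to 0.05. In B cells the ratio was -0.81 with an interval that held 0.

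**Figure D3:**
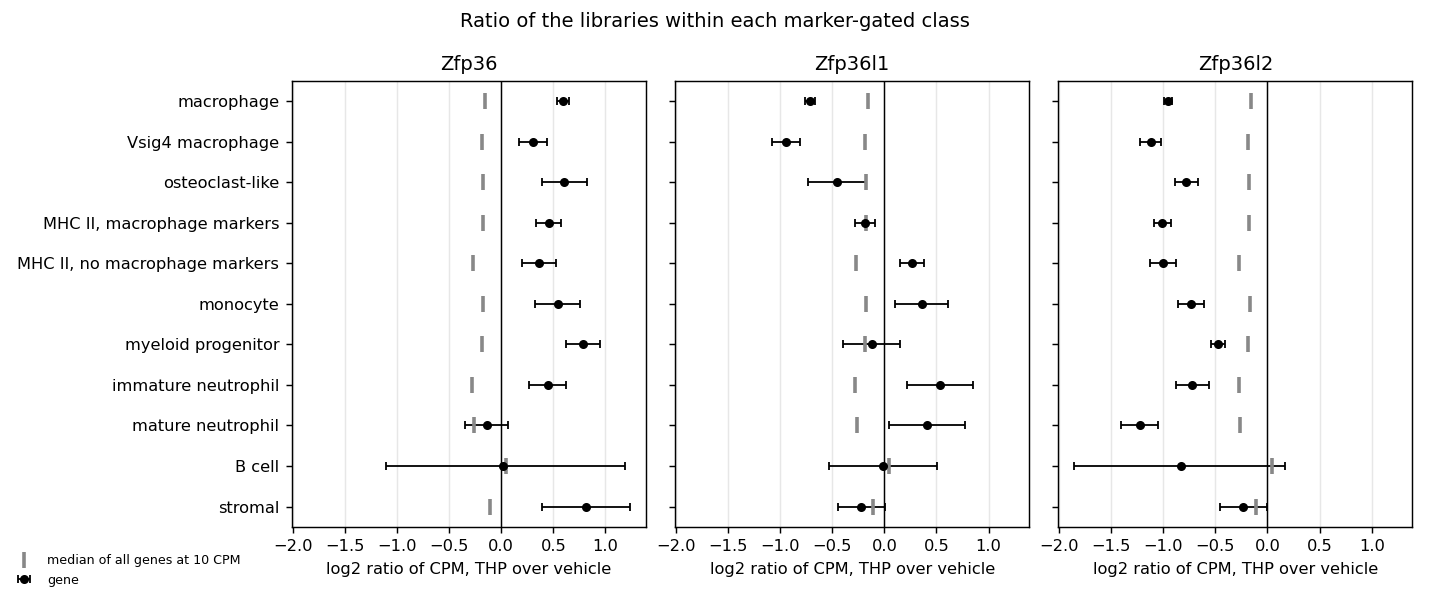
Log2 ratio of CPM, THP over vehicle, for each member in 11 marker-gated classes (x axis; here without the added 1), with counting 95% intervals, and the median of all genes at 10 CPM or more in that class as a grey tick. Zfp36 lies to the right of the tick in 10 classes, Zfp36l2 to the left in all 11, and Zfp36l1 lies on both sides.

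Depth differed between the classes, and the ratios of Zfp36 and Zfp36l1 differed between shallow and deep cells; the part of depth or class in this was not tested. Neutrophil classes had median depths of 2226 to 5246 UMIs, macrophages 21028 and 23640. When every cell was given equal weight, so that shallow cells counted as much as deep ones, Zfp36 had 89.3 CPM with THP and 83.6 CPM with vehicle, a log2 ratio of 0.09 in place of 0.55. Under 10000 UMIs, a division chosen after the data were seen, cells of the THP library had 114 CPM (109 to 119) and of the vehicle library 115 CPM (110 to 121) of Zfp36. At 10000 UMIs or more, THP cells had 68.5 CPM (67.4 to 69.6) and vehicle cells 43.5 CPM (42.6 to 44.5). Zfp36l1 likewise had 92.7 CPM against 86.9 CPM in the shallower cells and 57.3 CPM against 74.3 CPM in the deeper ones. Zfp36l2 was lower with THP in both, with 101 CPM against 202 CPM and 103 CPM against 190 CPM.

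The mix of classes differed between the libraries as given above. With the same mix of classes in both libraries the log2 ratios were 0.47 for Zfp36, -0.44 for Zfp36l1 and -0.87 for Zfp36l2. Within macrophages, equal weight per cell gave 0.54, -0.75 and -0.96, close to the 0.58, -0.70 and -0.95 from summed UMIs.

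In single macrophages the same differences were seen in the share of cells with a UMI. After each cell was thinned to 2000 UMIs, 13.7% (12.7 to 14.7) of 4399 THP macrophages and 10.8% (9.60 to 12.0) of 2639 vehicle macrophages had a Zfp36 UMI. A Zfp36l1 UMI was found in 484 of the THP cells (interval 10.1 to 12.0%) and in 480 of the vehicle cells (16.7 to 19.7%, a share of 18.2%), and a Zfp36l2 UMI in 17.3% (16.2 to 18.4) and 28.3% (26.6 to 30.1). Before thinning they were 68.4% and 61.7% for Zfp36, 57.1% and 73.4% for Zfp36l1, and 77.3% and 92.1% for Zfp36l2. At least 1 member was found in 36.2% of thinned THP macrophages and 47.0% of vehicle macrophages. Myeloid progenitors, the class lowest in Zfp36l1, had a Zfp36l1 UMI in 0.893% and 1.28% of thinned cells, which bounds the share that free RNA gave in that class.

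Members were found in the same macrophage about as often as their separate shares would give, except Zfp36 with Zfp36l1 in the THP library. Zfp36 and Zfp36l2 were both found in 2.36% (1.94 to 2.86) of thinned THP macrophages, where the product of their shares is 2.36%, and in 3.41% (2.75 to 4.18) of vehicle macrophages, where it is 3.05%. Zfp36 and Zfp36l1 were both found in 1.91% (1.53 to 2.36) and 2.27% (1.74 to 2.92), where the products are 1.51% and 1.96%. The THP interval lies just above its product. After thinning to 4000 UMIs the pair was found in 5.48% (4.82 to 6.19) of THP macrophages, again just above the product of 4.80%. In vehicle macrophages it was found in 6.25% (5.35 to 7.24), an interval that holds the product of 5.47%.

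The members' levels were next set beside the inflammatory mRNAs in the same cells. Thinned macrophages were grouped by their UMIs of 24 inflammatory mRNAs with AU-rich elements, a list that holds Tnf, Il1b and the Cxcl and Ccl chemokines. Macrophages with 3 to 5 such UMIs had 84.7 CPM (73.7 to 96.8) of Zfp36 with THP and 58.4 CPM (46.9 to 72.0) with vehicle. The same cells had 65.3 CPM (55.7 to 76.0) of Zfp36l1 with THP and 105 CPM (89.2 to 122.6) with vehicle. For Zfp36 this was the 1 group of 5 in which the intervals of the libraries did not overlap, and THP was the higher in all 5. Zfp36l2 was at 96.5 CPM (84.8 to 109.4) with THP and 175 CPM (154 to 197) with vehicle. Within a library Zfp36 ran from 61.7 to 85.7 CPM over the 5 THP groups and from 47.6 to 71.8 CPM over the 5 vehicle groups, with no steady order. In THP macrophages with 11 or more such UMIs, Zfp36l2 was at 78.4 CPM (65.5 to 93.1), with 1 or 2 at 116 CPM (101 to 133) and with none at 90.3 CPM (65.4 to 121.7). In vehicle macrophages the same groups had 205 CPM (150 to 274), 194 CPM (175 to 214) and 172 CPM (146 to 202). Members and inflammatory mRNAs in a cell draw on the same 2000 UMIs.

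**Figure D4:**
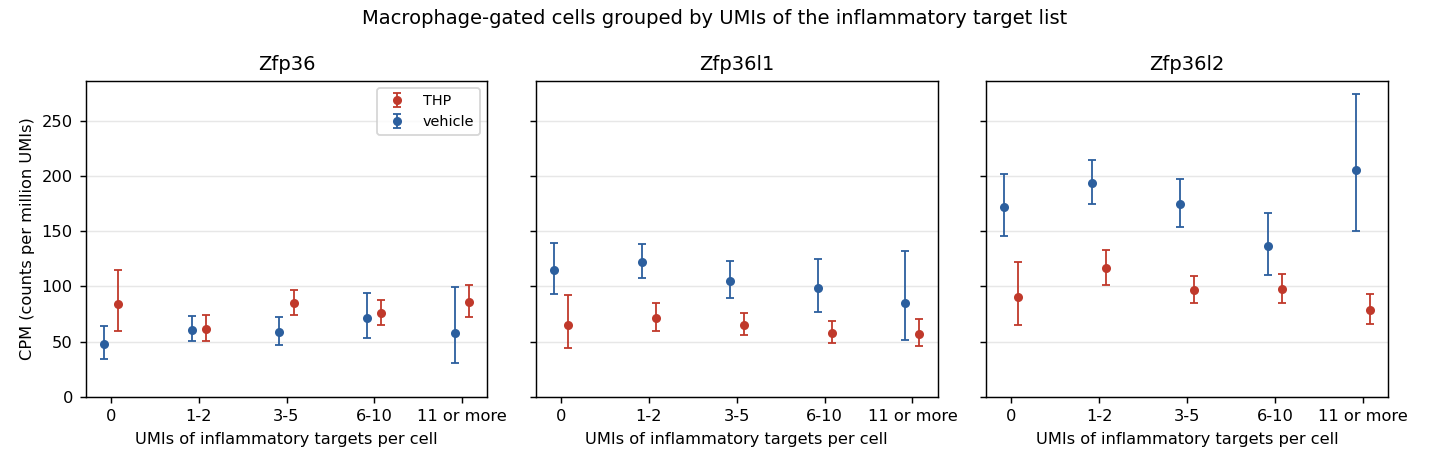
Level of each member in CPM (y axis, starting at 0) in macrophage-gated cells thinned to 2000 UMIs and grouped by their UMIs of the inflammatory target list (x axis), with THP in red and vehicle in blue and exact Poisson 95% intervals. The THP points of Zfp36l1 and Zfp36l2 lie below the vehicle points in all 5 groups, with intervals that overlap for Zfp36l1 at 11 or more and meet for Zfp36l2 at 6 to 10; those of Zfp36 overlap in 4 of 5 groups.

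Detaching cells can induce early response genes, Zfp36 among them, so 21 early response and dissociation genes were followed. The median log2 ratio of all 21 was 0.001, beside -0.18 for the 8012 genes, and 0.28 with TMM factors. None of the 16 at 10 CPM or more in both libraries passed the size rule. Of the 8012 genes at 10 CPM or more in at least 1 library, 0.911% passed it as higher and 2.97% as lower. A count of 0 in a list of this size is near that background. At 10 CPM or more in at least 1 library, 1 of 17 listed genes passed the rule, as lower: Fosb, an AP-1 subunit. Fosb reached 10 CPM only with vehicle, where it was high, at 13.6 CPM against 5.47 CPM with THP. Junb stood at 156 CPM with THP and 87.5 CPM with vehicle (0.82), Atf3 at 63.6 and 40.8 CPM (0.63), Fos at 92.9 and 92.8 CPM and Egr1 at 14.6 and 19.2 CPM (-0.37). In macrophages the summed level of the list was 3496 CPM with THP and 3553 CPM with vehicle. Across THP macrophages grouped by UMIs of this list, Zfp36 ran from 63.4 CPM (41.8 to 92.2) at 1 or 2 UMIs to 94.05 CPM (76.3 to 114.6) at 11 or more; in vehicle macrophages the same groups had 61.1 CPM and 62.1 CPM. The part of detachment in the Zfp36 difference was not tested.

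Upstream of the family, p38 (Mapk14) and its substrate kinase Mapkapk2 phosphorylate the Zfp36 protein, which holds it bound to adaptor proteins of the Ywha genes, stabilises it and reduces its decay activity; the phosphatase genes Ppp2ca and Dusp1 oppose this pathway. The median log2 ratio of the 16 genes listed was -0.08, and 0.16 with TMM factors. None of the 14 at 10 CPM or more passed the size rule, where 0.911% of all genes did as higher and 2.97% as lower. Mapkapk2 had 223 CPM with THP and 137 CPM with vehicle, a log2 ratio of 0.69, and 211 and 126 CPM in macrophages (0.74). Mapk14 had 61.5 CPM and 81.1 CPM, a log2 ratio of -0.39. Dusp1, which inactivates p38, had 57.2 CPM and 44.9 CPM over all cells (0.34) and 66.5 CPM and 62.4 CPM in macrophages (0.09). Phosphorylation and protein were not measured.

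Downstream, no gene of the machinery that the family recruits passed the size rule; with 0.911% of all genes past it as higher and 2.97% as lower, a count of 0 in lists of this size is near the background. The 20 deadenylation genes had a median log2 ratio of -0.39, and -0.12 with TMM factors. Cnot6l, a catalytic deadenylase subunit, was at 49.0 CPM with THP and 86.2 CPM with vehicle (-0.80, and -0.42 corrected for transcript length), and Cnot1, the scaffold to which the family's proteins bind, at 47.4 and 77.1 CPM (-0.69, and -0.31 corrected). The 18 genes of decapping and 5′ decay had a median of -0.20, with 8 above 0 and 10 below, and 0.065 with TMM factors. Among them Xrn1, the 5′ to 3′ exonuclease, stood at 29.6 and 56.0 CPM (-0.90, and -0.46 corrected), the helicase Ddx6 at 91.5 and 135.6 CPM (-0.56) and the decapping enzyme Dcp2 at 34.5 and 50.7 CPM (-0.54). The 13 exosome genes, which act from the 3′ end, had a median of 0.03, and 0.31 with TMM factors; Ttc37 was at -0.75 and Dis3, the catalytic subunit, at -0.62.

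The 18 other RNA stability factors had a median of -0.28, and 0.0013 with TMM factors. None of the 15 at 10 CPM or more in both libraries passed the size rule. Of all genes at 10 CPM or more in at least 1 library, 0.911% passed it as higher and 2.97% as lower. A count of 0 is again near that background. At 10 CPM or more in at least 1 library, 1 of 16 listed genes passed the rule, as higher: Zc3h12a, which reached 10 CPM only with THP, where it was high. Zc3h12a encodes Regnase, an endonuclease that cleaves inflammatory mRNAs at stem-loops. It had 18.6 CPM with THP and 8.26 CPM with vehicle (1.08), and in macrophages 20.7 and 7.10 CPM (1.42). Its relative Zc3h12c stood at 23.2 and 13.4 CPM (0.75). Elavl1, which encodes the stabilising AU-rich binding protein HuR, had 85.7 CPM and 82.9 CPM (0.05; named for its role, outside the naming rule). Khsrp, another AU-rich decay factor, had 41.7 CPM and 64.4 CPM (-0.62).

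The mRNAs on which the family acts were followed in 2 lists. The 24 inflammatory mRNAs with AU-rich elements had a median log2 ratio of 1.02, and 23 of them were above 0, with Fos at 0.001. For the 8012 genes at 10 CPM or more the median was -0.18, and 28.0% had a counting interval above 0. Of the 11 listed genes at 10 CPM or more in both libraries, 6 passed the size rule as higher and 1 as lower. The shares over all genes, 0.911% and 2.97%, were taken at a wider limit, 10 CPM or more in at least 1 library. A further 3, Il1b, Cxcl1 and Cxcl3, reached 10 CPM only with THP, where they were high, and 10 reached it in neither library. Cxcl1, a neutrophil-attracting chemokine, was at 54.3 CPM with THP and 5.50 CPM with vehicle (3.09), Ccl4 at 229 and 30.2 CPM (2.88), Il1b at 67.3 and 9.58 CPM (2.69) and Tnf at 117 and 18.9 CPM (2.56). Ccl3 stood at 2.39 and Cxcl2 at 2.37. Plau, the urokinase gene, was the 1 lower gene with 34.3 and 70.2 CPM (-1.01). The 15 growth and survival mRNAs had a median of -0.17, and 0.12 with TMM factors, and none of the 14 at 10 CPM or more passed the rule. Among them E2f2 was at -0.90, Bcl2 at -0.83, Notch1 at -0.63 and Mcl1 at 0.21. Both lists are of mRNAs reported to be bound or destabilised by a family member, and each was drawn up with results of these libraries known.

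**Figure D5:**
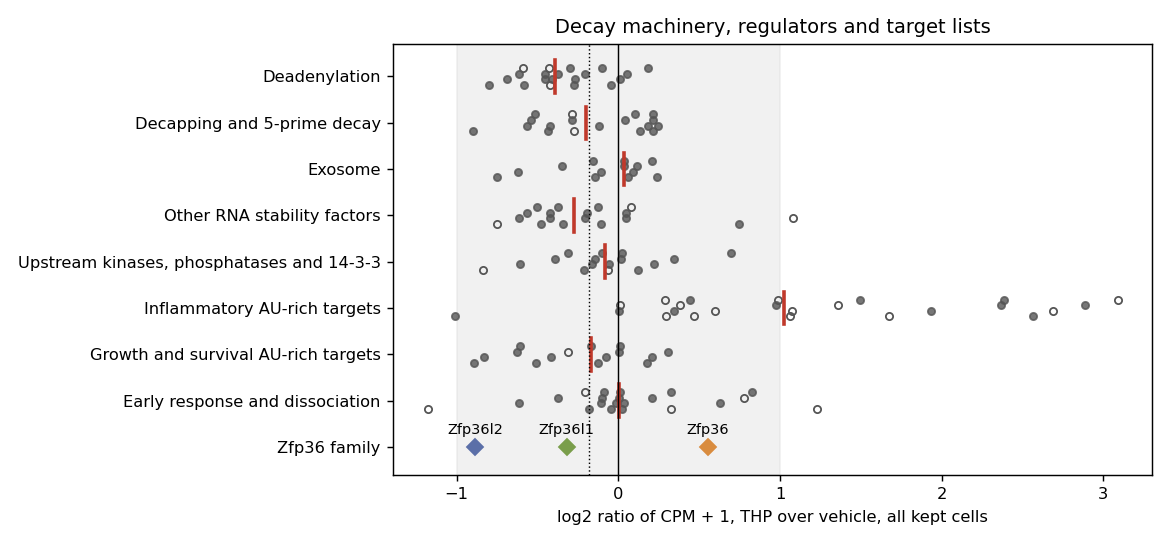
Log2 ratio of CPM + 1, THP over vehicle, over all kept cells (x axis) for each gene on 8 lists (filled points for genes at 10 CPM or more in both libraries, open points for the rest, red bar for the median of all the list's genes) and for the 3 members (diamonds); the dotted line is the median of all genes, -0.18, and the shaded band lies within 2-fold. The inflammatory targets spread from -1.01 to 3.09, while all points of the deadenylation, decapping, exosome and growth lists lie inside the band.

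Genes were then grouped by copies of the core motif, first with the listed mRNAs among them. Over all lengths the median log2 ratio was -0.12 for the 5535 genes with no copy and -0.37 for the 312 genes with 3 or more, but the latter have longer transcripts (median 5874 bases against 2943). In the shortest of 3 equal-sized length groups the 14 genes with 3 or more copies had a median of 0.24 and the 2307 with none 0.06. The size rule was passed as higher by 5 of the 14, all of them listed inflammatory mRNAs, and by 1.13% of the 2307. Of these 5, Il1b and Cxcl1 reached 10 CPM only with THP, where they were high. Without the listed genes and the members, the 8 that remained had a median of 0.13 and none passed the rule. The middle and longest groups were first taken with the listed genes and members included. Medians for 3 or more copies and for none were -0.07 (65 genes) and -0.21 (1897 genes) in the middle group. In the longest group they were -0.48 (233 genes) and -0.44 (1331 genes). Without the listed genes and members, those with 3 or more copies had medians of -0.06 (60 genes) and -0.48 (230 genes). The difference averaged over the 3 length groups, listed genes and members included, was 0.09 on the log2 scale. Of the inflammatory list 87.5% held a copy and 54.2% held 3 or more, and of the growth list 80.0% and 33.3%.

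Other genes with a like pattern were sought over the 22 sums of 11 classes and 2 libraries, among 7862 genes with a mean of at least 10 CPM. For Zfp36 the genes with high Pearson correlations of log2(CPM + 1) included Tlr2 (0.82), Trib1, Birc3 and Il10ra. Tlr2, a receptor for bacterial lipopeptides, was at 90.9 CPM with THP and 30.96 CPM with vehicle over all cells. For Zfp36l1 they were with Tmem123 (0.88), Filip1l, Phc2, Ly6a and Ddx58, and for Zfp36l2 with Tmem87a (0.89), Crybg3, Xpo1, Spred2 and Ankrd52. All 5 genes most like Zfp36l2 were lower in the THP library, from -0.69 for Spred2 to -1.04 for Ankrd52. The sums hold both libraries, and Zfp36l2 was lower with THP in all 11 classes. A shared direction thus follows in part from the choice of genes and is no separate result. Of the 8012 genes at 10 CPM or more over all cells, 63.3% had a counting interval below 0. Between the members the correlation was 0.41 for Zfp36 and Zfp36l1, -0.06 for Zfp36 and Zfp36l2 and -0.09 for Zfp36l1 and Zfp36l2. The sums share 2 libraries and differ in depth, and these values are descriptions of them.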

How the data were processed

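The deposited values are raw UMI counts per gene and barcode, made by the authors in Matrix Market form (software version 3.1.0, format version 2, per the file headers); the submitters' processing notes name Cell Ranger, bcl2fastq, STAR and mm10 without versions. Barcodes were kept with at least 500 genes, at least 1000 UMIs and at most 10% mitochondrial UMIs. UMIs were summed per library or class and given as CPM with exact Poisson 95% intervals; intervals of ratios are exact conditional binomial and of shares exact (Clopper-Pearson) binomial, and all cover counting error only. With 1 library per group no test was made. Classes were gated on marker UMIs per 10000 UMIs, with cuts set after seeing the data: macrophage 5 with at least 3 markers, Vsig4 5, osteoclast 3, interferon 15, monocyte 40, mature neutrophil 500, immature neutrophil 50 with neutrophil 200, progenitor 30, MHC class II 20 and rare types 10. No doublet caller was run; every gate except those of rare types, which took precedence, set upper limits on markers of chosen other classes, and cells that met none, or more than 1 macrophage subclass or rare type, were left out, so doublets may remain. Detection was compared after thinning to 2000 UMIs. The members, lists and rules were chosen with earlier results of these data known. Genes named were the 3 members, the 5 most correlated with each (1 of them is not reported here), and up to 6 per list with the largest ratio; Fos, Mcl1 and Elavl1 were added after their values were seen. Coordinates and transcripts come from GENCODE M21 (GRCm38). The scripts were tested on simulated data. Scaling alternatives used edgeR 4.0.16; other values came from Python 3.11.15 with scipy 1.17.1.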

Additional observations from a re-analysis of the deposited data

Results flagged for a closer look

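Zfp36l1 moved in opposite directions in 2 kinds of cell. Its log2 ratio of THP over vehicle was 0.51 (counting interval 0.22 to 0.85) in immature neutrophils, from 25.6 CPM and 17.7 CPM, and -0.93 (-1.08 to -0.81) in Vsig4 macrophages, from 72.3 CPM and 139 CPM. Centred on the median gene of each class the values were 0.79 and -0.75. Each value comes from 1 library per group, and the difference between the classes was not tested. The neutrophil class was shallower, with a median of 4954 and 5246 UMIs per cell against 18800 and 19821 in Vsig4 macrophages. It had 0.149 (THP) and 0.116 (vehicle) Zfp36l1 UMIs per cell, where myeloid progenitors had 0.123 and 0.162. RNA free in the droplets can contribute to values this low. The parts of depth and of free RNA in the difference were not tested.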

How the results depend on the processing

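Over all kept cells, the log2 ratio of Zfp36 (0.55) was 0.83 with TMM and 0.83 with RLE factors, 0.73 centred on the median gene, 0.51 without the top 5% of cells by UMIs, 0.094 with equal weight per cell, 0.47 with the same mix of classes and 0.50 corrected for transcript length. That of Zfp36l1 (-0.32) was -0.040 and -0.046 with TMM and RLE factors, -0.14 centred, -0.15 with equal weight and -0.44 with the same mix. That of Zfp36l2 (-0.89) was -0.60 and -0.61 with these factors, -0.71 centred, -0.86 without the top 5%, -0.98 with equal weight, -0.87 with the same mix and -0.83 corrected for length. A division by depth, chosen after seeing the data, gave 0.64 and -0.37 for Zfp36 and Zfp36l1 at 10000 UMIs or more, and below that reversed them to -0.022 and 0.093, with -0.99 for Zfp36l2. The cause was not tested. All deposited barcodes, a mitochondrial limit of 5% and no pseudocount left each ratio within its counting interval. With gates set 2 times as high, Zfp36l1 in MHC class II gated cells with macrophage markers went from -0.18 to 0.0044, while the counts of classes above and below 0 stayed within 1.5 times. The motif difference averaged over length groups, listed genes and members included, was 0.22 with the longer core in place of 0.09. It rested on as few as 5 genes in a length group. Genes past the size rule numbered 138 higher and 69 lower with TMM factors in place of 73 and 238, and 187 and 1387 at 1.5-fold. No paired analysis was possible because each group had 1 library. Depth limited B cells (74 and 52 cells), where a 2-fold difference of Zfp36 was not detectable.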

Other observations

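Barcodes below the cell filter held the members too. In the 1070 such barcodes of the THP library and the 606 of the vehicle library, Zfp36 had 86.4 CPM (74.8 to 99.2) and 83.2 CPM (68.9 to 99.6), Zfp36l1 72.0 CPM (61.5 to 83.9) and 95.1 CPM (79.8 to 112.5), and Zfp36l2 125 CPM (111 to 140) and 206 CPM (183 to 230.5). The intervals of the 2 libraries overlapped for Zfp36 and Zfp36l1 and did not for Zfp36l2.

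An interferon-high macrophage class held 104 THP cells and 44 vehicle cells, under the 50 needed in both for a comparison. It had 99.2 and 68.0 CPM of Zfp36, 61.4 and 122.7 CPM of Zfp36l1 and 64.6 and 163.9 CPM of Zfp36l2. There were 1.54 Zfp36 UMIs per Zfp36l2 UMI in its THP cells and 0.415 in its vehicle cells. A class with mast cell or basophil markers, with 51 and 31 cells, had 39.2 and 42.8 CPM of Zfp36 and 162 and 202 CPM of Zfp36l2.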
